A study of Mus musculus with 14 samples.

Results

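The genes described here are Angptl4, which encodes angiopoietin-like 4, and 8 genes for lipases, lipase partners and a lipoprotein receptor: Lpl, Gpihbp1, Vldlr, Lipe, Mgll, Lipa, Pnliprp2 and Abhd5. They were chosen by name, with earlier results of these data known, and each was found as 1 of the 54532 genes in the count table. The male mice, 7 per genotype (WT and IKO), had been on a high-fat diet (HFD) for 15 weeks, and mucosa of the ileum gave 1 RNA library per mouse. WT mice carry NCoR1 flox/flox alleles without Cre, and IKO mice carry the same alleles with Cre recombinase driven by the villin promoter, which is active in intestinal epithelial cells (IECs), so that NCoR1, a corepressor of nuclear receptors, is deleted there. The diet and the floxed alleles were common to both groups. The methods have such mice start the diet at an age of 7 to 8 weeks, whereas a feeding scheme names mice of 9 weeks, and which applies to these mice is not stated.

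Triglycerides are hydrolyzed by different enzymes in different places. In capillaries, lipoprotein lipase (Lpl), held on the endothelium by Gpihbp1, releases fatty acids from chylomicrons and very-low-density lipoproteins, and the secreted protein Angptl4 inhibits it. Inside cells, lipid droplets are broken down stepwise by Pnpla2 with its activator Abhd5, by hormone-sensitive lipase (Lipe) and by monoacylglycerol lipase (Mgll), whereas lysosomal acid lipase (Lipa) hydrolyzes lipids taken up by endocytosis and autophagy. Pancreatic lipase and related proteins such as Pnliprp2 act on dietary lipids. Angptl4 is a well-known target of PPAR transcription factors, whose activity NCoR1 represses, and the comparison of WT and IKO mice asks what the loss of the corepressor does to these genes.

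WT 3 and IKO 4 were rich in mitochondrially encoded transcripts, which took 23.9% and 50.3% of their counts against 3.49% to 10.3% in the other 12 libraries, and WT 4 was rich in smooth muscle transcripts. Between 14749669 and 21557468 reads were counted on genes per mouse. Ncor1 lay between 106 and 195 CPM (the usual depth-normalized count, here with TMM factors) in WT mice and between 31.7 and 64.0 CPM in IKO mice, with no overlap (log2 fold change -1.41, SE 0.18, adjusted p = 0.00051 in edgeR). The labels call the samples IECs, and the 10 enterocyte genes examined summed to 26879 to 102180 CPM in WT and 53896 to 89200 CPM in IKO mice (medians 57807 and 79836), with 0 of the 10 past the test, 9 above 0 and a median log2 fold change of 0.42. Genes of other cell types were also detected, and they are given beside the results with which they moved. In RNA from whole mucosa, fewer cells of a type and less RNA per cell cannot be told apart.

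Upstream sequence was at hand for 6 of the 9 genes (Vldlr, Lipe, Mgll, Lipa, Pnliprp2 and Abhd5), from RefSeq on GRCm38.p6, as 9 windows of 250 bases before an annotated start. Sequences of 2 of them are shown, Pnliprp2 because it is the gene past the test among these 6, and Abhd5 because its window alone held the 6-letter motif AGGTCA, to which many nuclear receptors bind, searched on both strands. Of all 32851 windows, 14.02% held the motif. The capitals in the Abhd5 window at chr9:122351366-122351615 (plus strand) mark the motif, read as TGACCT because it lies on the minus strand, from position 182. The last bases of that window lie inside the gene as the count table places it, which starts at 122351608. The capitals in the Pnliprp2 window at chr19:58759473-58759722 (plus strand) mark a stretch of 16 bases that occurs at positions 169 and 209, and 1.95% of all windows hold a repeat at least as long.
Pnliprp2: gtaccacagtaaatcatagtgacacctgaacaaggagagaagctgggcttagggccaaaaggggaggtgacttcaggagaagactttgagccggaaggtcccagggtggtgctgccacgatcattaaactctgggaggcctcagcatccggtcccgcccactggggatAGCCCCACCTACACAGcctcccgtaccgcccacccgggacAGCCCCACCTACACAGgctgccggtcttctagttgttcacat
Abhd5: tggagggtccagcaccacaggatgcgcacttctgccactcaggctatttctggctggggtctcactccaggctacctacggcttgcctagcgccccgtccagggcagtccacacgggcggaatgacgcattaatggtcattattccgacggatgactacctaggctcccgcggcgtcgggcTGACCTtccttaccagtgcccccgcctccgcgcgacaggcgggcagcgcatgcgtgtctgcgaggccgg
A direct repeat of the motif with 1 base between the copies, the form that PPAR and RXR bind together, was in 0 of the 9 windows and in 0.0335% of all windows. These matches describe letters in short windows only and carry no information on binding.

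Angptl4 and Pnliprp2 were higher in IKO mice, by 4.66-fold (95% confidence interval 2.80 to 7.73) and 2.61-fold (1.75 to 3.90), and the other 6 tested genes did not pass. The test was the quasi-likelihood test of edgeR, with p adjusted by Benjamini-Hochberg over the 13846 genes that passed a filter on low counts, and a gene was called at an adjusted p under 0.05. Gpihbp1 did not pass that filter. Thus 2 of the 8 tested genes were called, both higher in IKO mice, where 8.67% of all tested genes were called in either direction and 4.38% were called higher. Only Angptl4 had every IKO value above every WT value, as did 1.83% of all tested genes. The log2 fold change was above 0 for 6 of the 8 genes, with a median of 0.36. Over all tested genes, 43.5% were above 0 and the median was -0.09. Because the genes were chosen with earlier results of these data known, these shares are a description and not a test.

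**Figure D1:**
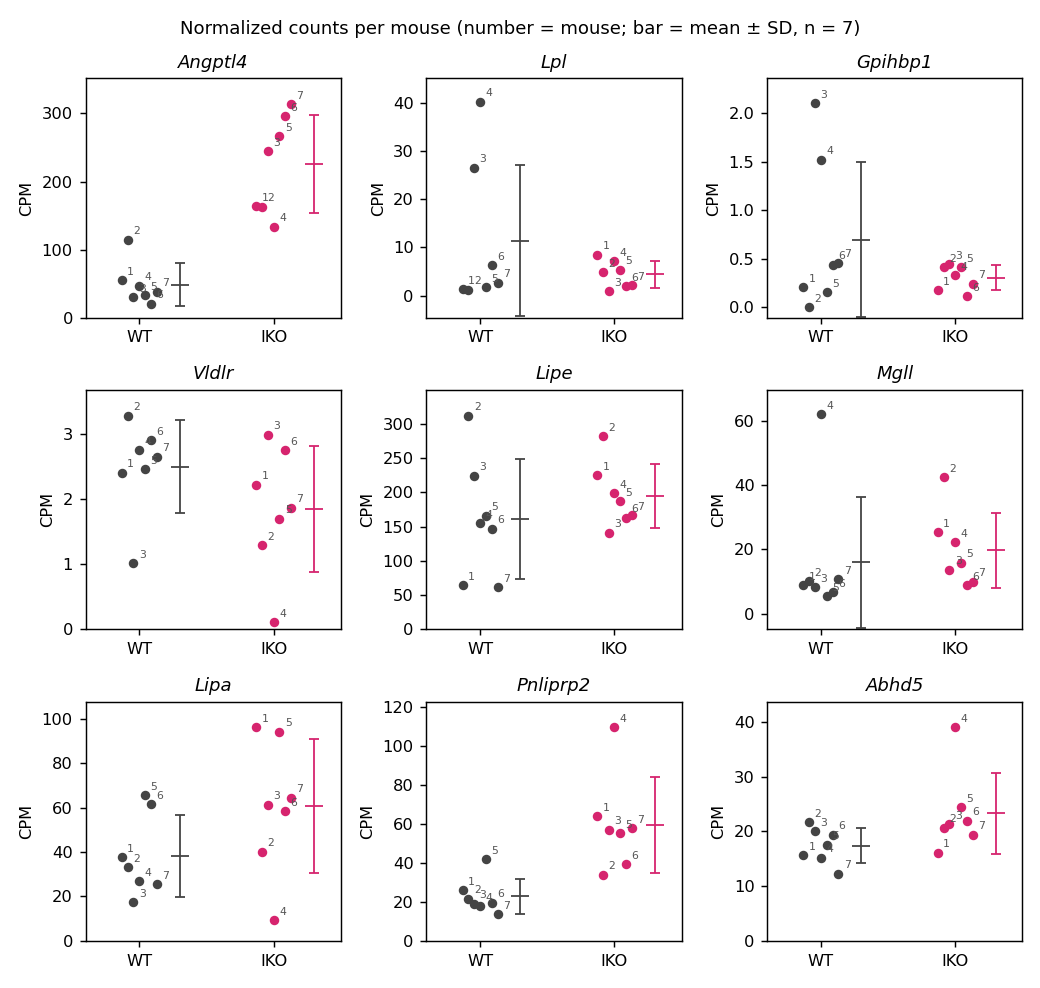
Normalized counts (CPM, linear axes) of the 9 genes in each mouse, with WT in grey and IKO in pink. Numbers name the mouse within its genotype, and the bar beside each group is the mean ± SD (n = 7). All 7 IKO mice lie above all 7 WT mice for Angptl4, whereas WT 3 and WT 4 stand far above the other WT mice for Lpl and WT 4 does so for Mgll.

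Angptl4 lies on chromosome 17 from 33773750 to 33781575 on the minus strand (mm10). In mice WT 1 to WT 7 it was at 55.3, 115, 30.2, 46.9, 33.5, 20.5 and 38.5 CPM, and in IKO 1 to IKO 7 at 164, 163, 244, 134, 266, 296 and 314 CPM. The lowest IKO mouse (IKO 4, 134 CPM) was above the highest WT mouse (WT 2, 115 CPM), and WT 1 followed WT 2 at 55.3 CPM. The WT mean was 48.5 ± 31.3 CPM and the IKO mean was 226 ± 71.6 CPM (SD, n = 7 each). On the log2 scale the difference was 2.22 (SE 0.34, 95% confidence interval 1.49 to 2.95, edgeR adjusted p = 0.0025). These values rest on 423 to 1780 reads per WT mouse and 1224 to 5209 per IKO mouse. Angptl4 stayed called without any single mouse and without WT 3, WT 4 and IKO 4 together (log2 fold change 2.20, edgeR adjusted p = 0.011).

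Lpl, the enzyme that Angptl4 inhibits, lies on chromosome 8 from 68880491 to 68907448. Its log2 fold change was -1.36 (SE 0.79, 95% confidence interval -3.03 to 0.31, edgeR adjusted p = 0.249), so no genotype difference was detected. In WT 1 to WT 7 it was at 1.31, 1.22, 26.5, 40.2, 1.83, 6.31 and 2.69 CPM, and in IKO 1 to IKO 7 at 8.54, 4.83, 0.942, 7.21, 5.42, 2.01 and 2.23 CPM. WT 3 and WT 4 were far above all other mice, and 4 of the 7 IKO mice were above the WT median. Without WT 3, WT 4 and IKO 4 the log2 fold change turned to 0.58 (edgeR adjusted p = 0.551), and without WT 4 alone it was -0.57 (edgeR adjusted p = 0.631).

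Some adipocyte transcripts moved with Lpl, but the sum of the whole list did not follow it in WT mice. Of 8 adipocyte genes, 4 were tested and 0 called, and their sum ranged from 33.1 to 179 CPM in WT and from 89.4 to 218 CPM in IKO mice, most of it Cidec, which was at 605 counts or more in every mouse. The highest WT sum was that of WT 2 (179 CPM), the WT mouse with the least Lpl. The defining genes Adipoq, Lep and Plin1, singled out after their values were seen, summed to 0, 6, 72, 211, 3, 60 and 15 counts in WT 1 to WT 7. In IKO 1 to IKO 7 they summed to 191, 15, 6, 31, 175, 5 and 14 counts. The 4 WT mice with the most of these counts, WT 4, WT 3, WT 6 and WT 7, were in the same order the 4 with the most Lpl. Among IKO mice, IKO 1, IKO 5 and IKO 4 had the most of these counts and the highest CPM of Lpl, whereas in counts of Lpl IKO 2 (82) was above IKO 4 (66). Adipoq was at 0 in WT 1 and WT 2, which had 32 and 19 reads of Lpl. The part of these cells in the Lpl values was not tested.

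Gpihbp1, which carries Lpl across capillary endothelium, lies on chromosome 15 from 75596628 to 75599481 and was near the limit of detection. WT 1 to WT 7 held 5, 0, 31, 32, 3, 9 and 13 reads, and IKO 1 to IKO 7 held 3, 7, 8, 3, 8, 2 and 4 reads. WT 3 and WT 4 were again the highest mice, and the 0 of WT 2 allows a level of up to 0.193 CPM (3 reads, counting error only). With no filter on low counts, edgeR gave a log2 fold change of -1.13 (SE 0.74, adjusted p = 0.365). Of 10 genes of blood endothelium, 7 were tested and 0 called. Their sum was 60.4 and 60.5 CPM in WT 3 and WT 4, 41.8 CPM in WT 7 and 11.6 to 18.1 CPM in the other 4 WT mice, against 9.47 to 31.9 CPM in IKO mice. Cldn5, an endothelial junction gene, was at 0 in WT 3. The part of endothelial cells in the Gpihbp1 values was not tested.

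**Figure D2:**
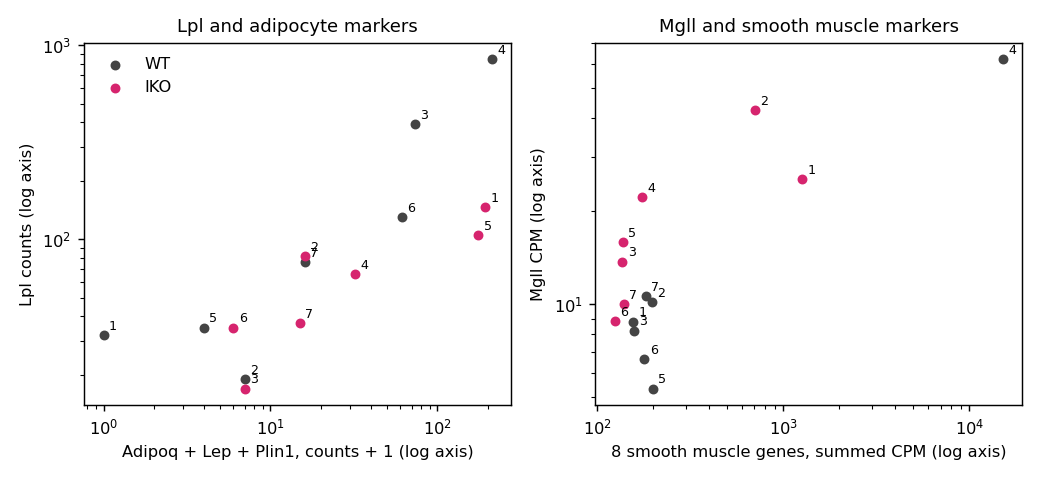
Left, Lpl counts (log axis) against the summed counts of Adipoq, Lep and Plin1 plus 1 (log axis); right, Mgll CPM (log axis) against the summed CPM of 8 smooth muscle genes (log axis). Each point is a mouse, numbered within its genotype, with WT in grey and IKO in pink. WT 4 lies at the upper right of both panels, with 846 Lpl counts and 62.2 CPM of Mgll.

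Vldlr, a receptor that binds triglyceride-rich lipoproteins and helps Lpl act on them, lies on chromosome 19 from 27216484 to 27254231. It was low in both genotypes, from 1.02 to 3.29 CPM (median 2.65) in WT and from 0.109 to 2.99 CPM (median 1.87) in IKO mice. The groups overlapped almost fully, and 2 of 7 IKO mice were above the WT median. The log2 fold change was -0.42 (SE 0.43, 95% confidence interval -1.33 to 0.49, edgeR adjusted p = 0.523). The lowest values were those of WT 3, with 15 reads, and IKO 4, with 1 read, the libraries rich in mitochondrial transcripts. Without IKO 4 the log2 fold change was -0.22.

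The transcripts of the inhibitor and its enzyme can be compared per length, which does not give the balance of the proteins. In FPKM (fragments per kilobase of gene length, as deposited), the ratio of Angptl4 to Lpl was 3.64 and 3.72 in WT 3 and WT 4, 10.4 in WT 6 and 45.6 to 299 in the other WT mice. In IKO mice it was 59.1 to 826, with medians of 45.6 in WT and 157 in IKO mice. The groups overlapped, and the low WT ratios were those of the mice with the most Lpl. The ratios rest on 19 to 846 reads of Lpl in WT mice and 17 to 146 in IKO mice.

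The other genes of intravascular lipolysis and remnant uptake did not pass. Of a list of 20 such genes, 14 were tested and 0 were called, with 6 of 14 above 0 and a median log2 fold change of -0.35. The list holds Angptl8, a secreted regulator of Lpl activity, at -1.09 (SE 0.50, edgeR adjusted p = 0.158), and endothelial lipase, Lipg, at -1.29 (SE 0.56, edgeR adjusted p = 0.136). Apoc3, an apolipoprotein that inhibits Lpl, differed by 0.14 (SE 0.56, edgeR adjusted p = 0.889). At an unadjusted p under 0.05, which 30.4% of all tested genes reached, edgeR would have taken 5 of the 14, Sorl1, Lmf2, Lrp8, Lipg and Angptl8, each of them lower in IKO mice, and these names were picked after their values were seen. DESeq2 called 0 of the list and limma-voom with sample quality weights called Sorl1.

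Of Abhd5, Lipe and Mgll, which act in intracellular lipolysis, none passed with all mice, and Abhd5 had the lowest adjusted p in that fit. It encodes CGI-58, the coactivator of Pnpla2, and lies on chromosome 9 from 122351608 to 122381524. It ranged from 12.3 to 21.6 CPM (median 17.6) in WT and from 16.1 to 39.0 CPM (median 21.3) in IKO mice. IKO 4 stood apart at 39.0 CPM, and the other 6 IKO mice were at or below 24.5 CPM. Its log2 fold change was 0.42 (SE 0.19, 95% confidence interval 0.01 to 0.83), with an adjusted p of 0.156 and an unadjusted p of 0.045 in edgeR over all tested genes. Without IKO 4 it was 0.25 (edgeR adjusted p = 0.299).

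Lipe, hormone-sensitive lipase, lies on chromosome 7 from 25379527 to 25398710 on the minus strand and ranged from 61.3 to 312 CPM (median 154) in WT and from 141 to 282 CPM (median 187) in IKO mice. All 7 IKO mice lay within the WT range, whose ends were set by WT 1 and WT 7 at 64.7 and 61.3 CPM and by WT 2 at 312 CPM. IKO and WT differed by a log2 fold change of 0.27 (SE 0.32, 95% confidence interval -0.40 to 0.94, edgeR adjusted p = 0.583). The gene overlaps the antisense gene 4732471J01Rik, which had 3 to 18 reads per mouse, and whether the counting used strand is not stated.

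Mgll, which splits monoacylglycerols including the endocannabinoid 2-arachidonoylglycerol, lies on chromosome 6 from 88724412 to 88828360. In WT 1 to WT 7 it was at 8.78, 10.2, 8.22, 62.2, 5.34, 6.65 and 10.7 CPM, and in IKO 1 to IKO 7 at 25.4, 42.4, 13.7, 22.2, 15.9, 8.84 and 9.998 CPM. All 7 IKO mice were above the WT median of 8.78 CPM, and 5 of them were above every WT mouse but WT 4. With all mice, the log2 fold change was 0.30 (SE 0.54, 95% confidence interval -0.83 to 1.44, edgeR adjusted p = 0.731). Without WT 4 it was 1.25 (SE 0.34) and passed the threshold (edgeR adjusted p = 0.043). Without WT 3, WT 4 and IKO 4 it was 1.22 and did not pass (edgeR adjusted p = 0.102).

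Smooth muscle transcripts moved with Mgll. Of 8 smooth muscle genes, 8 were tested and 0 called, with 0 above 0 and a median log2 fold change of -3.04. They summed to 15165 CPM in WT 4, where Des, Myh11 and Acta2 led, against 155 to 200 CPM in the other WT mice. In IKO 1 and IKO 2, the IKO mice with the most Mgll, they summed to 1260 and 702 CPM, and in the other 5 IKO mice to 124 to 174 CPM. Those 5 mice had 8.84 to 22.2 CPM of Mgll against 5.34 to 10.7 CPM in the WT mice other than WT 4, and IKO 6 and IKO 7 lay within that WT range. The smooth muscle gene Tagln was at 0 in WT 3, and no mouse lacked the other 7. The part of muscle in the Mgll values was not tested.

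**Figure D3:**
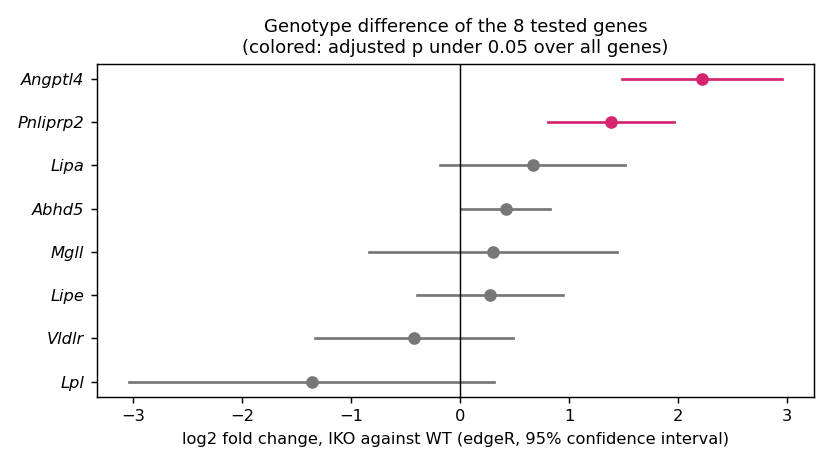
Log2 fold change of IKO against WT mice for the 8 tested genes, with 95% confidence intervals from edgeR (7 mice per genotype). Angptl4 and Pnliprp2, in pink, had an adjusted p under 0.05, and the interval of Lpl, from -3.03 to 0.31, was the widest.

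In a list of 24 further genes of cellular lipolysis and its regulators, 17 were tested, 3 were called higher and 0 lower in IKO mice by edgeR, against 7 at an unadjusted p under 0.05 and 6 called by DESeq2. Of the 17, 8 were above 0, and the median log2 fold change was near 0 (-0.00028). Abhd4, which hydrolyzes N-acyl phospholipids, rose from 59.6 ± 14.7 to 159 ± 27.9 CPM (SD, n = 7 each), a log2 fold change of 1.42 (SE 0.18, edgeR adjusted p = 0.00051). Pnpla2, adipose triglyceride lipase, rose from 125 ± 32.6 to 260 ± 67.8 CPM (SD, n = 7 each), by 1.06 on the log2 scale (SE 0.20, edgeR adjusted p = 0.0080). The genotypes did not overlap for either gene. Abhd6, another monoacylglycerol lipase, was at 184 ± 55.1 CPM in WT and 331 ± 57.3 CPM in IKO mice (SD, n = 7 each). Its ranges overlapped, and its log2 fold change of 0.84 (SE 0.21, edgeR adjusted p = 0.024) no longer passed in 5 of 24 other fits, which were those with no filter on low counts, with a replicate block, without WT 7, without IKO 1 and without IKO 5 (highest adjusted p 0.075). Hence Pnpla2 was called, whereas its coactivator Abhd5 and the enzymes of the later steps, Lipe and Mgll, were not, and the differences between these genes were not tested. Of the inhibitors of Pnpla2, Hilpda was at 0.02 (SE 0.25, edgeR adjusted p = 0.959). G0s2, another, did not pass the filter, with 162 reads in WT 4, 3 to 8 in the other WT mice and 3 to 33 in IKO mice. DESeq2 called G0s2 higher in IKO mice (1.63, adjusted p = 0.042), although WT 4 held more of its reads than any IKO mouse. No other fit called it, but the main edgeR fit had removed it by the filter. The edgeR fit with no filter on low counts kept it and did not call it. How far the DESeq2 value depends on WT 4 was not tested.

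Lipa, lysosomal acid lipase, lies on chromosome 19 from 34492318 to 34527474 on the minus strand. It ranged from 17.4 to 65.5 CPM (median 33.1) in WT and from 9.40 to 96.2 CPM (median 61.3) in IKO mice. Of the IKO mice, 6 of 7 were above the WT median, and IKO 4 was below every WT mouse at 9.40 CPM. The log2 fold change was 0.66 (SE 0.40, 95% confidence interval -0.18 to 1.51, edgeR adjusted p = 0.267), and without IKO 4 it was 0.86 (edgeR adjusted p = 0.093). Of 20 other genes of lysosomal enzymes and acid lipid handling, 20 were tested and 0 called, with 13 above 0 and a median of 0.20. At an unadjusted p under 0.05 edgeR would have taken 3 of them (30.4% of all genes), DESeq2 called 0 and limma-voom with sample quality weights called 5 (13.6% of all genes). IKO 4, with 956 CPM, had the lowest sum over these genes of any mouse, against 1666 to 3458 CPM elsewhere. Without IKO 4, edgeR called Lamp2 (0.91, adjusted p = 0.034) and Ctsb (0.65, adjusted p = 0.028) higher in IKO mice. Without WT 3, WT 4 and IKO 4 it called Ctsd (0.65, adjusted p = 0.048) and Ctsl (1.33, adjusted p = 0.0073), all of them lysosomal proteins.

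Pnliprp2, the pancreatic lipase-related gene, lies on chromosome 19 from 58759723 to 58777533, with the window printed above ending just before its start. In WT 1 to WT 7 it was at 25.8, 21.6, 19.0, 17.9, 41.8, 19.7 and 13.7 CPM, and in IKO 1 to IKO 7 at 63.9, 33.9, 57.0, 109, 55.1, 39.2 and 57.8 CPM. Every IKO mouse was above 6 of the 7 WT mice, and the overlap came from WT 5, which was above IKO 2 and IKO 6. WT mice averaged 22.8 ± 9.14 CPM and IKO mice 59.5 ± 24.5 CPM (SD, n = 7 each). This gave a log2 fold change of 1.38 (SE 0.27, 95% confidence interval 0.80 to 1.96, edgeR adjusted p = 0.0093). Without IKO 4, the highest mouse, it was 1.17 (edgeR adjusted p = 0.013). Without WT 3, WT 4 and IKO 4 it was 1.06 and just missed the threshold (edgeR adjusted p = 0.052).

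Pancreatic transcripts were scarce. Pnlip, pancreatic lipase itself, had 0 or 1 read in 12 mice, 6 in IKO 5 and 21 in IKO 4, whereas Pnliprp2 had 280 to 1093 reads. Of 9 acinar genes, 1 was tested and 0 called, and they summed to 10.2 to 33.2 CPM in WT and 11.1 to 63.0 CPM in IKO mice, most of it Clps. Clps, which encodes the cofactor of pancreatic lipase, had 162 to 982 reads and a log2 fold change of 0.43 (SE 0.41, edgeR adjusted p = 0.498). Cela3b was at 0 in all WT mice and Amy2a5 in 6 of them. IKO 4 had the most Pnlip reads and the highest acinar sum, and it was also the mouse with the most Pnliprp2. IKO 2 had the next highest acinar sum (58.1 CPM) but the lowest Pnliprp2 of the IKO mice (33.9 CPM). The part of pancreatic cells in the Pnliprp2 values was not tested. Of 7 luminal and pancreatic lipase genes other than Pnliprp2, Clps was the 1 that could be tested, and 3 had no read in any mouse. Of 7 Paneth cell genes, 7 were tested and 0 called. Among IKO mice their sum was highest in IKO 4 (5548 CPM) and IKO 2 (4752 CPM), against 701 to 4913 CPM in WT mice.

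Per length, the 9 genes were ordered by their median level, and each was compared with its neighbor in that order. In WT mice the median FPKM were 25.6 for Lipe, 12.5 for Pnliprp2, 11.3 for Angptl4 and 10.9 for Lipa, and these neighbors overlapped in range. The ranges did not overlap between Lipa and the next gene, Abhd5 (2.91), which overlapped Mgll (1.70). Mgll did not overlap Vldlr (0.255), which overlapped Lpl (0.249), as Lpl did Gpihbp1 (0.170). Genes further apart could still overlap, since WT 4 took Mgll to 11.9 FPKM, within the Lipa range, and Lpl to 3.74 FPKM, above the highest Abhd5 value. In IKO mice Angptl4 stood first with a median of 74.1 FPKM, followed by Pnliprp2 (36.3), Lipe (32.2), Lipa (20.6), Abhd5 (3.56) and Mgll (3.18), each overlapping the next. Lpl (0.461), Vldlr (0.188) and Gpihbp1 (0.1301) lay below all of these without overlap with Mgll, whereas in WT mice Lpl overlapped Mgll. Angptl4 thus moved from rank 3 to rank 1, and the 3 genes of lowest level were the same in both genotypes.

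**Figure D4:**
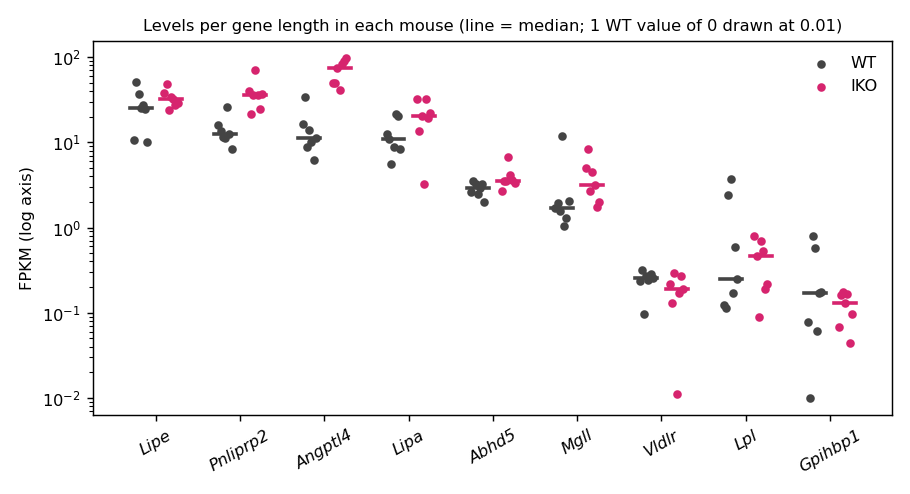
Levels per gene length (FPKM, log axis) of the 9 genes in each mouse, ordered by the WT median, with WT in grey and IKO in pink. Lines are medians, and the WT 2 value of 0 for Gpihbp1 is drawn at 0.01. Angptl4 moves from a WT median of 11.3 to an IKO median of 74.1, while Vldlr, Lpl and Gpihbp1 stay lowest in both genotypes.

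The spread among mice of a genotype also had its own pattern for each gene. For the 8 tested genes, the Pearson correlation of log2 CPM with every other gene was taken over the 14 mice after the mean of each genotype was subtracted. Such correlations share the library and its normalization and are given as descriptions only, with the value over the 11 mice without WT 3, WT 4 and IKO 4 second. The genes most like Lpl were Car3 (0.949 and 0.927), Fabp4 (0.932 and 0.822) and Endog (0.874 and 0.837). Those most like Mgll were 2810025M15Rik (0.972 and 0.945), Myl9 (0.959 and 0.929) and Tgfb1i1 (0.954 and 0.888). Car3 and Fabp4 are abundant in adipocytes and Myl9 in smooth muscle.

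For Angptl4 the genes most alike were Ndor1 (0.832 and 0.814), Tmem25 (0.825 and 0.812) and Zfp276 (0.817 and 0.822), the lowest first value among the 8 genes. For Pnliprp2 they were Ovol1 (0.859 and 0.805), Mocos (0.852 and 0.859) and Plscr1 (0.823 and 0.765). The genes most like Lipe were Rhoc (0.981 in both), Fez2 (0.969 in both) and Trib3 (0.967 and 0.966). Lipe, Pnliprp2 and Angptl4 thus kept values near these without the 3 libraries. Lipa was most like Rnf121 (0.985 and 0.962), Erlin1 (0.978 and 0.931) and Tmem98 (0.977 and 0.913), and Abhd5 was most like Cpne2 (0.936 and 0.944), Prkcz (0.925 and 0.837) and Grk5 (0.924 and 0.874). Vldlr was most like Ostm1 (0.966 and 0.736), Ankle2 (0.962 and 0.63) and Lrig2 (0.953 and 0.863), and its values fell most when the 3 libraries were left out.

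The remaining marker lists bear on several genes at the same time. Of 6 fibroblast genes, 5 were tested and 0 called, with a sum of 354 CPM in WT 4 and 6.28 to 62.9 CPM in the other WT mice, against 8.32 to 44.7 CPM in IKO mice. Of 7 macrophage genes, 7 were tested, with 2 above 0 and a median log2 fold change of -0.31. Cd14 was called higher in IKO mice (0.77, SE 0.20, edgeR adjusted p = 0.033), and the other 6 were not called. Over all tested genes, edgeR called 8.67%. Of 6 genes of lymphatic endothelium, the vessels that carry chylomicrons from the gut, 5 were tested, all 5 below 0 with a median of -0.71, and Mmrn1 was called lower in IKO mice (-1.06, SE 0.31, edgeR adjusted p = 0.047). DESeq2 called 1 gene of that list (16.5% of all genes) and limma-voom with sample quality weights called 2 (13.6% of all genes). Without WT 3, WT 4 and IKO 4, edgeR called 0 genes of it. Without WT 4, the mouse with the most fibroblast and muscle transcripts, Angptl4 had a log2 fold change of 2.21 (edgeR adjusted p = 0.0055). Where a marker list had 0 genes called by edgeR, genes at an unadjusted p under 0.05, which 30.4% of all tested genes reached, were counted too. These were 4 fibroblast genes and 1 smooth muscle gene, all lower in IKO mice. There were also 1 enterocyte gene and 1 adipocyte gene, both higher, 1 blood endothelium gene, which was lower, and 0 Paneth or acinar genes. DESeq2 called 1 fibroblast gene in these lists, and limma-voom with sample quality weights called 1 gene each of the enterocyte, adipocyte and Paneth lists.

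**Figure D5:**
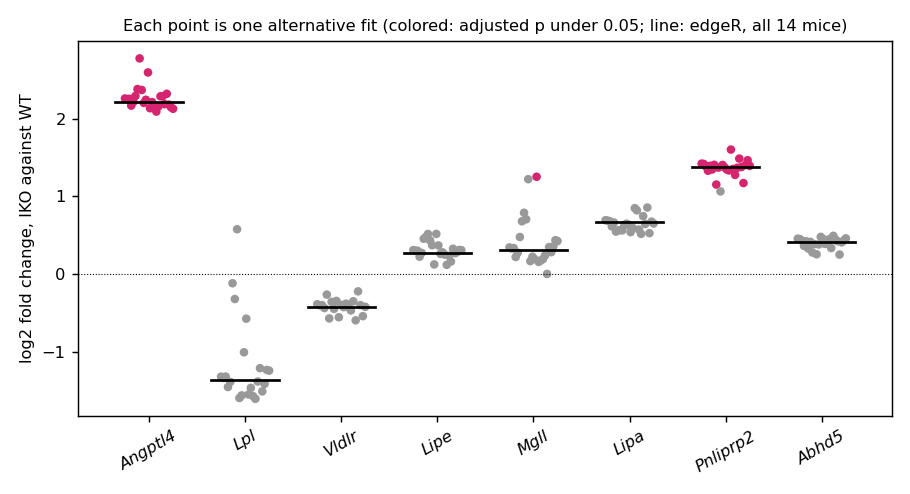
Log2 fold change of IKO against WT mice under the alternative fits for the 8 tested genes, 24 for each but Lpl (22) and Vldlr (21), which the filters of some fits removed. Each point is a fit, pink where the adjusted p was under 0.05, and the line is the edgeR fit with all 14 mice. Angptl4 lies between 2.09 and 2.77 throughout, Lpl runs from -1.60 to 0.58, and Mgll runs from 0.0027 to 1.25.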

How the data were processed

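Mucosal RNA of the ileum was measured in 7 WT and 7 IKO mice, with groups taken from the sample titles (the columns name IKO mice KO). Per the submitters' notes and the methods, NEBNext libraries were sequenced as paired-end reads, aligned to mm10 with HISAT2 2.0.5 and counted with featureCounts 1.5.0-p3. The deposited counts are whole and not normalized. The deposited FPKM equal counts divided by gene length and DESeq2 size factor times a constant, as checked on 149276 values.

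Here, counts were filtered with filterByExpr, scaled by TMM and tested with edgeR 4.0.16 in R 4.3.3 (quasi-likelihood, genotype as the only term, Benjamini-Hochberg over 13846 genes, threshold 0.05). Levels between genes were compared in FPKM only. At 14749669 reads or more per mouse, counting limits precision most for Gpihbp1, Vldlr and Lpl.

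Named genes are the 9 genes, Ncor1, called genes of each list, markers that moved with a gene, and for each tested gene the 3 most correlated genes with a mean log2 CPM of at least 1. The genes and lists were chosen with earlier results of these data known, and the lists were written from general knowledge. The 24 alternatives were DESeq2 1.42.0, RLE, no filter, at least 10 counts in every mouse, no mitochondrial genes, limma 3.58.1 on log2 FPKM plus 1 or 0.1, voom with quality weights, the replicate number as a block, leaving out WT 3, WT 4 and IKO 4, and leaving out each mouse. They were applied to the lists only after the data were seen. Protein sequences and promoters of the other 3 genes were not used here.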

Additional observations from a re-analysis of the deposited data

Results flagged for a closer look

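In each genotype the lowest and the highest mouse of the 9 genes were compared with the rest by Dixon's ratio. This is the gap to the nearest mouse divided by the range, taken on log2 values. In 18 groups, chance alone gives about 0.9 flags if such values are normally distributed. Of the 18 groups, 4 had a mouse that stood apart. The highest WT mice for Lpl, WT 4 and WT 3, lay near each other and were not flagged (ratio 0.122). For Vldlr, WT 3 was the lowest WT mouse (ratio 0.729) and IKO 4 the lowest IKO mouse (ratio 0.702), at 1.02 and 0.109 CPM. For Lipa, IKO 4 was the lowest IKO mouse (ratio 0.623), at 9.40 CPM. WT 3 and IKO 4 were the libraries with the largest mitochondrial share, 23.9% and 50.3%. For Mgll, WT 4 was the highest WT mouse (ratio 0.721), at 62.2 CPM, and it was also the mouse with the most smooth muscle transcripts. What these libraries contributed was not tested beyond the fits without them.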

How the results depend on the processing

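Angptl4 kept its direction and its call in all 24 alternatives, and Pnliprp2 in 23 of 24, the exception being the fit without WT 3, WT 4 and IKO 4. In that fit 1 of the 9 genes was called and Lpl reversed to 0.58. The number of the genes called was 2 to 3 when single mice were left out, 3 without WT 4, where Mgll passed, and 2 in the other fits. Lipe, Lipa and Abhd5 were not called in any of the 24 and kept their sign, as did Vldlr in the 21 that tested it, without both limma fits and the minimum of 10 counts. Lpl had 22, without both limma fits. Over all genes, 1200 were called by edgeR (607 higher, 593 lower), 2571 by DESeq2, 1889 by voom with quality weights, 508 with no filter on low counts (346 higher, 162 lower) and 433 without the 3 libraries (276 higher, 157 lower). The share called higher also moved in limma on log2 FPKM plus 1 (708 higher, 328 lower) or 0.1 (706 higher, 317 lower). Leaving out single mice gave 515 (without IKO 5) to 1371 (without WT 2). Over the pathway lists, 3 genes were called, against 6 by DESeq2, 10 by voom, 5 without the 3 libraries and 2 to 6 without single mice (6 without WT 2, 5 without IKO 4). Same-numbered mice did not deviate together, with correlations from -0.305 to 0.232 and 1 of 7 above 0.1. With the replicate number as a block, 362 genes were called (226 higher, 136 lower), Angptl4 and Pnliprp2 among them, and 2 genes of the lists. The causes of these differences were not tested. Depth limits Gpihbp1 (0 to 32 reads) and Vldlr (1 to 75 reads).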
